A study of Mus musculus with 6 samples.

Results

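The mature miRNAs of the clustered mir-143 and mir-145a hairpins were followed in small RNA of cultured mouse oligodendrocytes and of the extracellular vesicles (EVs) that these cells released. The members were taken by name: miR-143-3p, miR-143-5p, miR-145a-5p and miR-145a-3p, 4 of the 1906 miRNAs in each count table. In both groups the cells were primary oligodendrocytes of C57BL/6N mice taken at embryonic day 14, with no genetic change named in the labels, first grown in Sato medium with horse serum. The 3 EV libraries came from pellets of stepwise centrifugation, after 24 h in serum-free Sato medium with the supplement B27, at day 5 to 6 in vitro. The 3 Cells libraries came from whole cells at day 6. No library of medium alone was analysed here, although the study's title concerns miRNAs of serum-free supplements that travel with EVs, and a high-speed pellet can hold non-vesicular particles. Nothing in the labels gives how many animals were pooled, or says whether each replicate was its own culture; the p-values thus rest on the spread among these libraries, which may be technical.

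miR-143 and miR-145 are processed from a shared primary transcript and are best known from the contractile cells of the vessel wall, smooth muscle cells and pericytes, which together are called mural cells. Serum response factor and myocardin drive the cluster there, and its miRNAs favour the contractile over the proliferative state. miR-145 does so in part through the transcription factor KLF4, and miR-143 in part through ELK1. Fibroblasts and other mesenchymal cells also make both miRNAs. In the GENCODE M21 annotation of build GRCm38 the mouse genes Mir145a and Mir143 lie beside each other on the same strand, downstream of the long noncoding RNA gene Carmn. The deposited counts were made on an older build, mm9, so only the neighbourhood is used and no coordinates are given.

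Library totals were 313766 to 689475 counts in EVs and 126910 to 202358 in Cells. Levels are given as CPM, the read count divided by the library's total count and rescaled by the same constant in every library. A single read was worth 1.45 to 3.19 CPM for EVs, and 4.94 to 7.88 for Cells, so values at or near 0 in Cells are the less precise ones. Of the markers of the labelled cell type, miR-219a-2-3p, which promotes oligodendrocyte differentiation, stood at 23529 ± 5180 CPM in Cells (mean ± SD, n = 3), and all 5 listed oligodendrocyte miRNAs were detected in both groups. Their summed level ranged from 33557 to 36111 CPM among the EV libraries and from 33961 to 43435 CPM among the Cells libraries. These markers do not show that the cultures held oligodendrocytes alone. The 7 listed neuron miRNAs summed to 42557.7 to 57718.5 CPM among the Cells libraries and to 102938 to 134575 CPM among the EV libraries.

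The cluster was a minor part of both profiles and a larger part of the EV profile. The share of all counts that fell on the 4 members was 0.326% ± 0.123 for EVs and 0.0599% ± 0.0360 for Cells (SD over 3 libraries, exact two-sided permutation p = 0.1, the smallest that 3 against 3 allow). These shares came from 1179, 746 and 3212 reads in EVs replicates 1 to 3 and from 158, 45 and 87 reads in Cells. Every EV library lay above every Cells library. With reads and totals pooled over each group, the share of the cluster was 6.00 times as high in EVs (95% exact binomial interval 5.33 to 6.77). Such intervals cover counting error only. In bulk libraries, fewer cells of a type and less RNA per cell cannot be told apart.

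**Figure D1:**
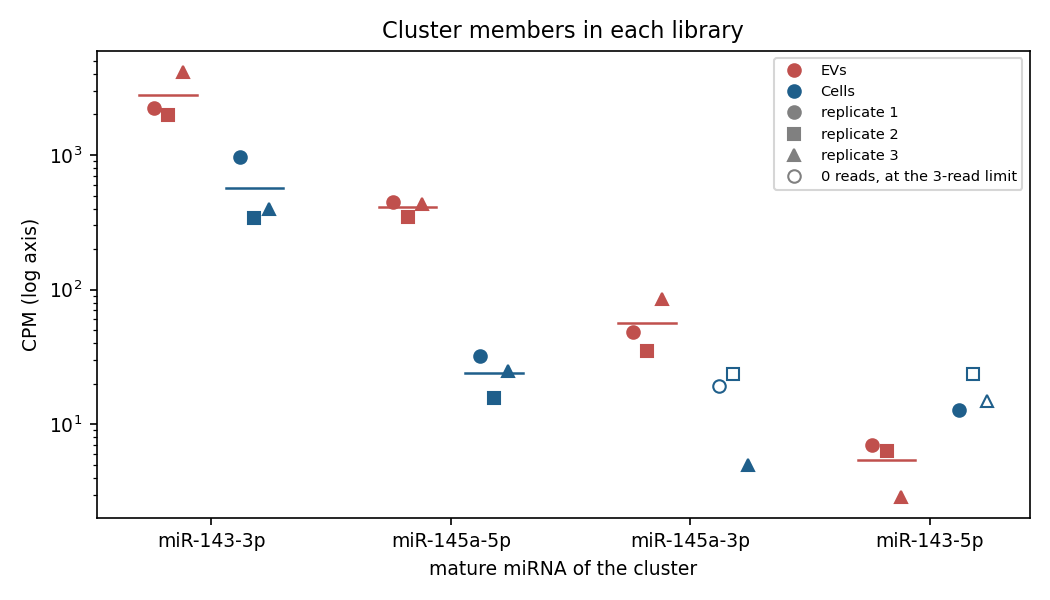
CPM of the 4 members in each library on a log axis, EVs in red and Cells in blue, with 1 symbol per replicate and a bar at the group mean where every library had reads; open symbols are libraries with 0 reads, drawn at the 3 reads that a count of 0 allows. miR-143-3p, miR-145a-5p and miR-145a-3p were higher in every EV library than in any Cells library, and miR-143-5p overlapped.

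miR-143-3p, the arm of mir-143 that is usually loaded into Argonaute, was the most abundant member in each of the 6 libraries. It stood at 2230, 1989 and 4136 CPM in EVs replicates 1 to 3, from 961, 624 and 2852 reads. In Cells replicates 1 to 3 it stood at 967, 339 and 400 CPM, from 151, 43 and 81 reads. The groups did not overlap, but in each of them 1 library stood above the other two: replicate 3 among the EVs and replicate 1 among the Cells. By abundance miR-143-3p ranked between 49 and 74 in the EV libraries and between 91 and 154 in the Cells libraries.

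miR-143-3p was higher in EVs by a log2 fold change of 1.76 (SE 0.45, adjusted p = 0.00892, edgeR's quasi-likelihood test with Benjamini-Hochberg adjustment over 336 miRNAs). Without Cells replicate 1, its log2 fold change was 2.49 (edgeR adjusted p = 0.000547), and without EVs replicate 3 it was 1.41 (adjusted p = 0.0270). It was called higher under each of the 15 alternatives run.

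miR-143-5p, the passenger arm, was close to undetected. It had 3, 2 and 2 reads in EVs and 2, 0 and 0 reads in Cells, so the groups overlapped. It did not reach the filter on low counts and was not tested in the main comparison. The pooled share was 1.18 times as high in EVs, with a counting interval of 0.226 to 11.7. That interval spans 1 and also holds the pooled ratio of miR-143-3p, 5.46 (4.83 to 6.19), so a difference between the arms of mir-143 was not detectable from these shares.

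miR-145a-5p, the guide arm of mir-145a, differed more between the groups than miR-143-3p. It stood at 450, 347 and 434 CPM in EVs replicates 1 to 3, from 194, 109 and 299 reads. In Cells replicates 1 to 3 it stood at 32.0, 15.8 and 24.7 CPM, from 5, 2 and 5 reads. All EV libraries lay far above all Cells libraries, and replicate 2 was the lowest of each group.

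miR-145a-5p was higher in EVs by a log2 fold change of 3.57 (SE 0.32, edgeR adjusted p = 2.53e-05), the third largest of the 336 tested miRNAs. The cell level rested on 12 reads over 3 libraries. miR-145a-5p passed the filter on low counts only through the EV libraries, where it was high, so its call and rank are given as descriptions. The pooled share was 17.0 times as high in EVs, with a counting interval of 9.65 to 33.0. Over the 15 alternatives the log2 fold change lay between 3.15 and 4.04, and it was called higher under each of them.

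miR-145a-3p, the passenger arm of mir-145a, was present in every EV library. It stood at 48.7, 35.1 and 85.6 CPM in EVs replicates 1 to 3, from 21, 11 and 59 reads. In Cells it had 0, 0 and 1 reads, where a count of 0 allows up to 19.2 CPM in replicate 1 and 23.6 CPM in replicate 2. The groups did not overlap, and the lowest EV library lay above those limits.

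Like miR-143-5p, miR-145a-3p did not reach the main filter, so 2 of the 4 members were tested there. Fitted without a filter beyond a count above 0, its log2 fold change was 4.30 (SE 0.91, edgeR adjusted p = 3.44e-05 over 1015 miRNAs), in a fit that called 12.2% of miRNAs higher. With 1 read in Cells a fitted fold change depends on the prior count. The ratio of pooled shares was 30.8, with a counting interval of 5.39 to 1230. The related entry miR-145b had 0 reads in all 6 libraries.

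Both tested members were called higher, against 28.6% of the 336 tested miRNAs (57.4% were called in either direction), and both had every EV library above every Cells library, against 47.3% of all tested miRNAs. miR-145a-5p, with at most 5 reads in a Cells library, reached the minimum count of 10 only through the EV libraries, where it was high. A miRNA that enters in that way had to differ, and with 2 tested members nothing is read from these shares. Over the whole of the tested miRNAs the median change was 0.06 (log2), or 0.54 when libraries were scaled by their totals only. With that scaling miR-143-3p stood at 2.29 and miR-145a-5p at 4.04, so the direction of both was the same under either scaling.

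**Figure D2:**
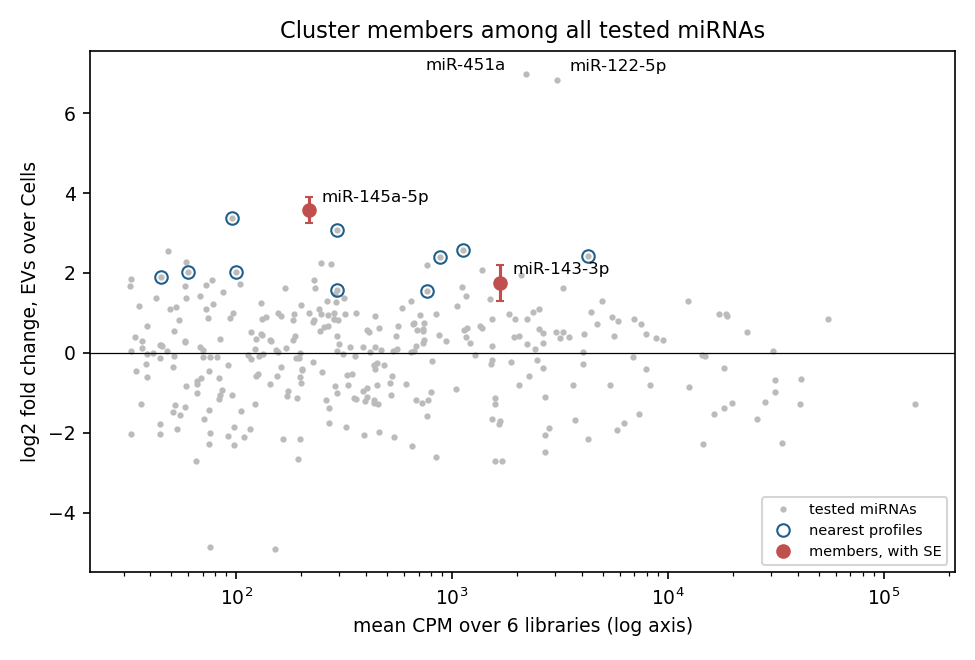
Log2 fold change of EVs over Cells (edgeR) against mean CPM over the 6 libraries on a log axis, for the 336 tested miRNAs in grey, the members in red with their SE, and the 10 miRNAs with profiles nearest to a member as open circles. miR-145a-5p at 3.57 lies below miR-451a and miR-122-5p, and miR-143-3p at 1.76 lies lower, among other increased miRNAs.

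Agreement between the clustered hairpins was examined next. Summed over both arms, the mir-143 hairpin was higher in EVs by a log2 fold change of 1.75 (SE 0.45, edgeR adjusted p = 0.00941) and the mir-145a hairpin by 3.65 (SE 0.31, adjusted p = 2.09e-05). Both hairpin sums were thus higher in EVs, with the larger estimate for mir-145a. That hairpin had 13 reads in Cells and passed the filter on low counts only through the EV libraries. These separate fits do not test a difference between the hairpins.

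The ratio of the hairpins was also taken within single libraries, where scaling cancels but the noise of few reads does not. For every 100 reads of the mir-143 hairpin there were 22.3, 19.2 and 12.5 reads of the mir-145a hairpin in EVs replicates 1 to 3. In Cells replicates 1 to 3 there were 3.27, 4.65 and 7.41. Each EV library exceeded each Cells library, although replicate 3, the lowest of the EVs and the highest of the Cells, narrowed the gap. Group means were 18.0 ± 4.98 and 5.11 ± 2.11 (SD, n = 3 each).

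On the log2 scale with a pseudocount of 0.5, the mean ratio of mir-145a to mir-143 was -2.51 in EVs and -4.19 in Cells, a difference of 1.68. The exact two-sided permutation p was 0.1, the smallest that 3 libraries against 3 allow. With the replicate number as a block, the exact two-sided sign-flip permutation p was 0.25, the smallest that 3 pairs allow. Between same-numbered libraries the difference was 2.64, 1.74 and 0.66 for replicates 1, 2 and 3, positive in 3 of 3. With reads pooled over libraries, the odds of a read coming from mir-145a and not mir-143 were 3.32 times as high in EVs, with an exact 95% interval of counting error of 1.90 to 6.36. The 13 reads of mir-145a in Cells set the width of that interval.

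**Figure D3:**
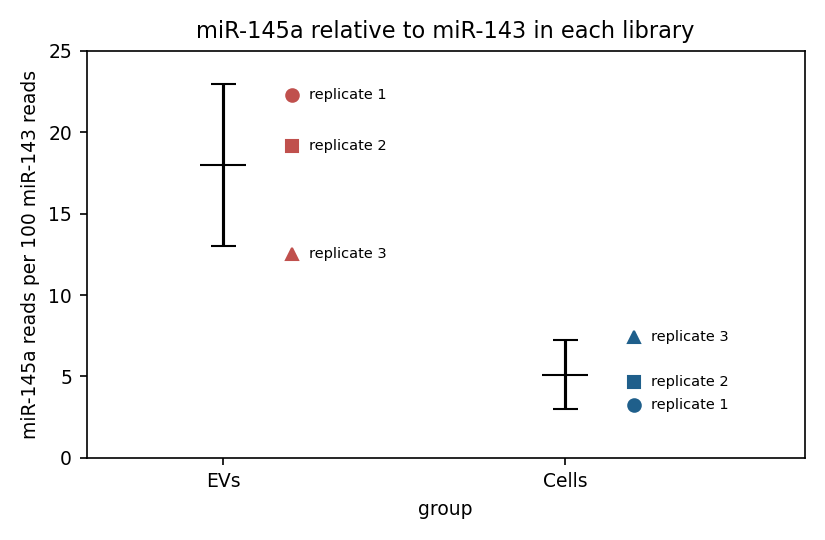
Reads of the mir-145a hairpin per 100 reads of the mir-143 hairpin in each library, with the group mean and SD (n = 3) beside the points. The EV libraries lie between 12.5 and 22.3 and the Cells libraries between 3.27 and 7.41.

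Other neighbouring miRNA genes were used to see how far such a ratio moves elsewhere. Under the planned minimum of 10 reads per hairpin in every library, the mir-145a and mir-143 pair could not be fitted; 30 pairs were, of which 53.3% were called. With a minimum mean of 10 reads over the 6 libraries, chosen after seeing the data, 49 pairs within 10 kb on the same strand were fitted with limma. The mir-145a hairpin, with 5, 2 and 6 reads in Cells, passed this minimum only through the EV libraries, so its value is a description and no call is drawn from it. The mir-145a to mir-143 ratio differed between EVs and Cells by 1.68 (SE 0.36, 95% interval 0.81 to 2.55), and leaving out any single library gave 1.37 to 1.95. Over the 49 pairs the median size of the change was 0.77. Of these pairs 42.9% were called. Blocking by number lowered that share to 16.3%, and dropping an EV library gave 19.1% (replicate 1 dropped), 18.4% (replicate 2) or 25% (replicate 3).

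Other pairs may have passed the lower minimum through 1 group as well, so their changes are also given as values. The largest change was in miR-144 and miR-451a, an erythroid pair in which miR-451a is matured without Dicer, at -2.99 (95% interval -3.58 to -2.41). In Cells miR-144 had 1 read and miR-451a had 2, 7 and 3 reads in replicates 1 to 3. The ratio there, and with it the interval, thus leaned on the pseudocount of 0.5. The next by size were miR-666 and miR-543 at 2.37 (-0.07 to 4.81) and miR-23b and miR-27b at -1.94 (-2.63 to -1.25). At the other end, the ratio of miR-127 to miR-434 changed by 0.01 (95% interval -0.57 to 0.58), that of miR-34c to miR-34b by -0.03 (-0.50 to 0.45) and that of miR-300 to miR-381 by -0.03 (-0.54 to 0.47).

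**Figure D4:**
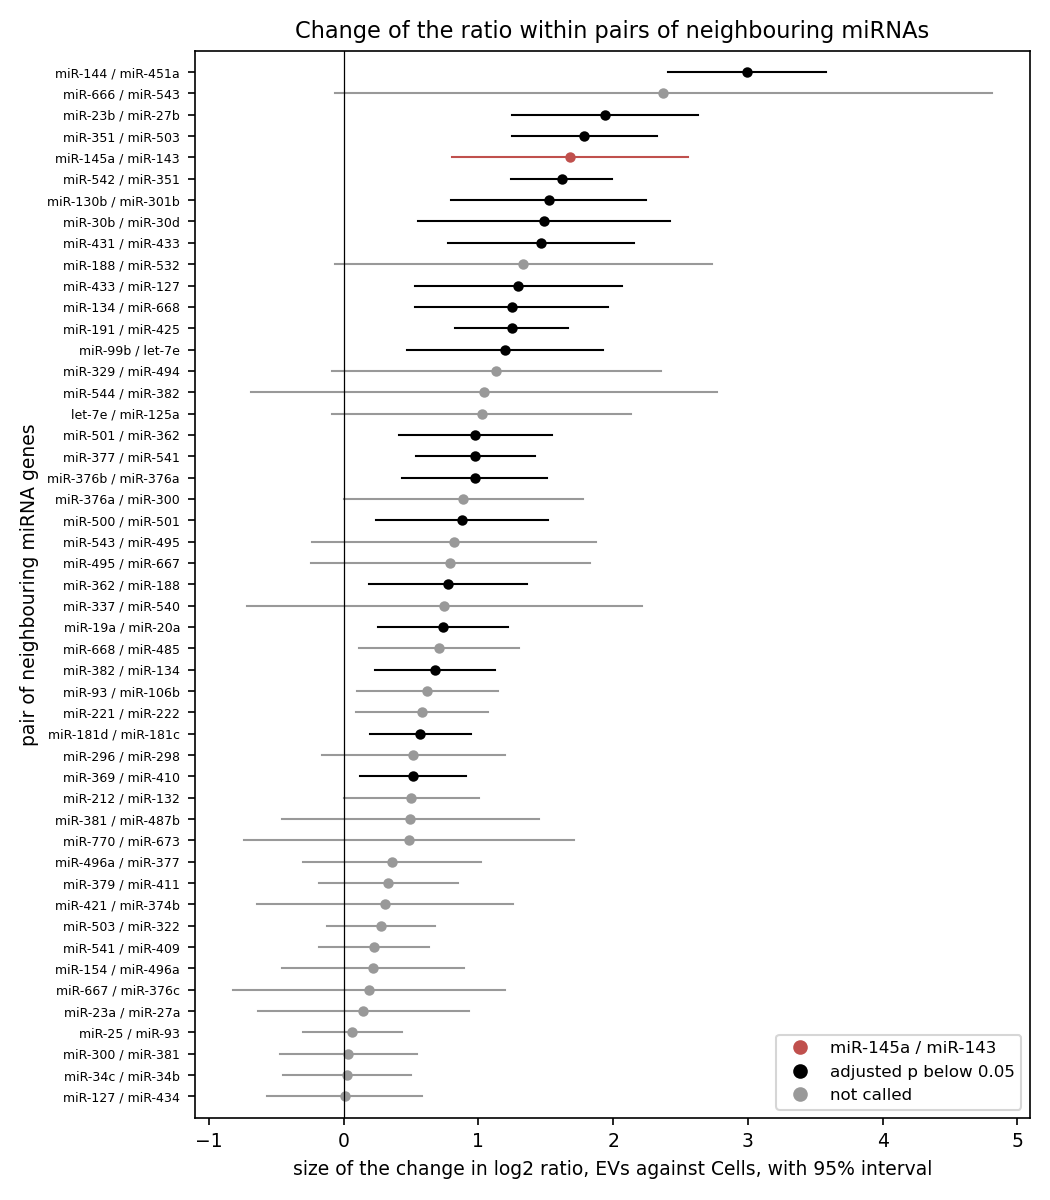
Size of the change in the log2 ratio of 49 pairs of neighbouring miRNA genes, EVs against Cells, with 95% intervals from limma; the sign was turned so that each change is positive. The pair of miR-145a and miR-143, in red, lies at 1.68.

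The balance of arms within each hairpin was measured on few passenger reads. In mir-145a the 3p arm held 9.77%, 9.17% and 16.5% of hairpin reads in EVs replicates 1 to 3, and 0%, 0% and 16.7% in Cells. The groups overlapped. Pooled, the share was 13.1% in EVs (exact binomial interval 10.7 to 15.9%) and 7.69% in Cells (0.195 to 36.0%), from 1 of 13 reads. The mir-145a hairpin had too few reads in Cells for the planned test, and with the lower minimum of a mean of 10 reads its log2 ratio of 5p to 3p differed by 0.37 (95% interval -0.89 to 1.63, limma adjusted p = 0.611), where 31.7% of 218 hairpins were called. Pooled reads pointed the other way, with an odds ratio of 5p to 3p of 0.551 (exact counting interval 0.0128 to 3.81). In Cells libraries with 0 reads of the 3p arm, the log2 ratio was set by the pseudocount and few 5p reads. No direction is read from it.

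In mir-143 the 5p arm held 0.311%, 0.319% and 0.0701% of hairpin reads in EVs, and 1.31%, 0% and 0% in Cells, again overlapping. The planned limma test on log2 ratios with a pseudocount of 0.5 gave a difference of -2.17 (SE 0.67, adjusted p = 0.0385 over 165 hairpins, of which 31.5% were called). With a pseudocount of 1 it gave -2.68 (adjusted p = 0.00430). This value rested on 9 reads of miR-143-5p and moved with the pseudocount, since a library with 0 passenger reads has a ratio set by its miR-143-3p reads. Pooled reads gave an odds ratio whose exact counting interval, 0.465 to 24.3, spans 1. The call was lost on leaving out EVs replicate 1 (-2.49, limma adjusted p = 0.0637) or EVs replicate 3 (-1.46, adjusted p = 0.106). It was lost as well on leaving out Cells replicate 1 (-1.85, limma adjusted p = 0.106) or Cells replicate 2 (-2.11, adjusted p = 0.0636).

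Replicate spread over all 3 libraries was wider for miR-143-3p than for miR-145a-5p in both groups, an order that rested on 1 library in each. For miR-143-3p the coefficient of variation (CV) of CPM was 42.2% in EVs, where counting alone gives 2.60%, and 60.9% in Cells, where counting gives 10.4%. Its SD of log2 CPM was 0.57 in EVs and 0.80 in Cells, against medians over all tested miRNAs of 0.26 and 0.33. Of the tested miRNAs, 88.4% in EVs and 88.1% in Cells had a smaller SD. Without EVs replicate 3 the SD of miR-143-3p was 0.12 and that of miR-145a-5p 0.26, so the order turned. It turned as well without Cells replicate 1, at 0.17 for miR-143-3p and 0.35 for miR-145a-5p.

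For miR-145a-5p the CV was 13.4% in EVs, where counting gives 7.06%, and 33.7% in Cells, where counting alone gives 50%. Its spread in Cells was therefore no larger than that of counting. The SD of log2 CPM was 0.20 in EVs and 0.40 in Cells. It was 0.037 without EVs replicate 2 and 0.22 without Cells replicate 2. EVs replicate 3, the highest library for miR-143-3p, was not the highest for miR-145a-5p, at 434 CPM against 450 CPM in replicate 1, but was the highest for miR-145a-3p.

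**Figure D5:**
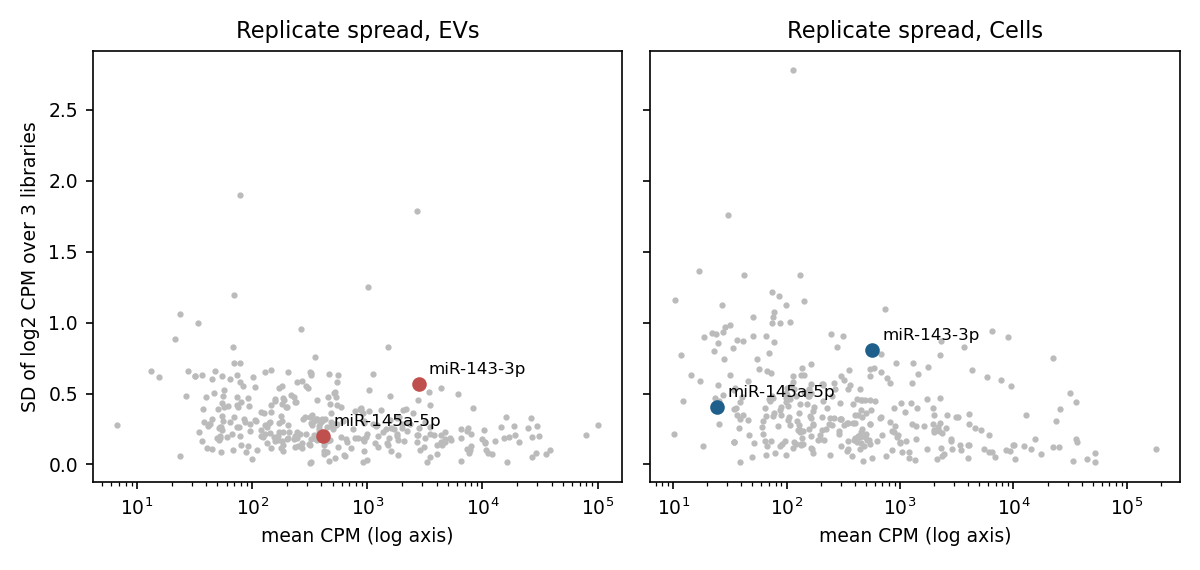
SD of log2 CPM over 3 libraries against mean CPM on a log axis, for the tested miRNAs in grey and the guide arms of the cluster in colour, EVs on the left and Cells on the right. miR-143-3p lies above most miRNAs in both groups, at 0.57 and 0.80, and miR-145a-5p lies at 0.20 and 0.40.

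The ratio of EVs to Cells between same-numbered libraries showed the same contrast. For miR-143-3p, CPM was 2.31, 5.87 and 10.3 times as high in EVs for numbers 1, 2 and 3. For miR-145a-5p it was 14.1, 22 and 17.6 times as high. The miR-145a-5p ratio exceeded the miR-143-3p ratio in all 3 numbers.

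Profiles over the 6 libraries were compared by the root mean square difference of log2 CPM, each miRNA centred on its own mean. Between miR-143-3p and miR-145a-5p it was 0.83. Of the other 335 tested miRNAs, 60 lay closer to miR-143-3p than miR-145a-5p did, and 12 lay closer to miR-145a-5p than miR-143-3p did. The nearest to miR-143-3p were miR-551b-3p (0.31), miR-300-3p (0.46), miR-381-3p (0.47), miR-199a-3p (0.50) and its identical counterpart miR-199b-3p (0.50). The nearest to miR-145a-5p were miR-341-3p (0.43), miR-376a-3p (0.50), miR-148a-3p (0.52), miR-344f-5p (0.55) and miR-136-3p (0.56). All 10 were themselves called higher in EVs, against 28.6% of the 336 tested miRNAs. They were chosen by closeness, over libraries of both groups, to members that were higher in EVs, so nothing is read from that count. Some, such as miR-551b-3p, miR-341-3p and miR-344f-5p, passed the filter on low counts only through the EV libraries. Of the 10, 5 have genes on chromosome 12, and the share of all tested miRNAs on it was not counted.

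The mature sequences of the nearest profiles are shown for the first of each member, for miR-199a-3p, a miRNA of mesenchymal cells, and for miR-376a-3p, from RefSeq on GRCm38.p6, 5′ to 3′ with the seed (bases 2 to 8) in capitals. All 10 nearest miRNAs were found in the RefSeq table. The 4 printed here have different seeds. The 10 nearest miRNAs held 9 distinct seeds, because miR-199a-3p has, with miR-199b-3p, the same mature sequence and cannot be separated.
miR-551b-3p: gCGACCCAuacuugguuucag
miR-199a-3p: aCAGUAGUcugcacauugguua
miR-341-3p: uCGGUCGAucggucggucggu
miR-376a-3p: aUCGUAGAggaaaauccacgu

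miR-199a-3p, with the mature sequence printed above, stood at 167, 137 and 209 CPM in EVs replicates 1 to 3. Its 15 reads in Cells gave 38.4, 7.88 and 39.5 CPM. Its log2 fold change was 2.01 (SE 0.43, edgeR adjusted p = 0.00340). Like miR-143-3p it was highest among the EVs in replicate 3, but among the Cells it was about as high in replicate 3 as in replicate 1. miR-551b-3p stood at 75.1 ± 20.9 CPM (EVs) against 14.5 ± 9.71 CPM (Cells) (1.89, SE 0.53, edgeR adjusted p = 0.0131), a call lost when Cells replicate 3 was left out (1.57, adjusted p = 0.0655). miR-341-3p stood at 540 ± 102 CPM (EVs) against 45.7 ± 11.8 CPM (Cells) (3.06, SE 0.32, edgeR adjusted p = 6.81e-05), and miR-376a-3p at 2005 ± 366 and 242 ± 10.9 CPM (2.58, SE 0.24, adjusted p = 3.18e-05). Of these, miR-199a-3p, miR-551b-3p and miR-341-3p passed the filter on low counts only through the EV libraries. Their calls are given as descriptions.

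miRNAs of other cell types that could accompany mural cells or serum were read from lists chosen with earlier results of these data known. In the fibroblast and mesenchyme list 6 of 10 members were tested, 2 rose and 0 fell, and the median change was 0.37 (log2). For this and the following lists, 28.6% of the 336 tested miRNAs rose and 28.9% fell, with a median of 0.06, or 148 rose and 60 fell with library size only. The list counts are read beside these shares, and nothing is called particular to a list. Those that rose were the miR-199a and miR-199b 3p arms, a single sequence. Both had fewer than 10 reads in each Cells library and passed the filter only through the EV libraries. The same holds for miR-126a-5p, miR-451a and miR-122-5p, named below, so these calls are given as descriptions. The most abundant, miR-22-3p, stood at 2896 ± 204 CPM (EVs) against 1943 ± 364 CPM (Cells) (0.10, edgeR adjusted p = 0.752), and miR-152-3p at 330 ± 77.1 and 160 ± 36.6 CPM (0.55, adjusted p = 0.0967). With library size only, both were called higher (0.57 and 1.04) and 4 members rose. miR-214-3p, made with miR-199a in mesenchyme and named here after its values were seen, had 10, 0 and 19 reads in EVs and 0, 0 and 1 in Cells. EVs replicate 2 thus overlapped the Cells, and the fit without a filter did not call it (edgeR adjusted p = 0.0631), nor did DESeq2 (adjusted p = 0.332). The list summed to 3216 to 3965 CPM per EV library and to 1726 to 2580 CPM per Cells library, and miR-199b-5p and miR-214-5p were at 0 in all Cells libraries.

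Of the endothelial pair, miR-126a-5p rose (139 ± 30.5 CPM (EVs) against 34.4 ± 4.49 CPM (Cells), 1.53, SE 0.34, edgeR adjusted p = 0.00391). miR-126a-3p, which supports vessel integrity, stood at 107 ± 37.3 and 41.4 ± 11.7 CPM (0.86, adjusted p = 0.0840) and was called with library size only (1.34) and without EVs replicate 2 (0.98). Together they summed to 182 to 303 CPM per EV library and to 63.0 to 93.9 CPM per Cells library, and both were detected in each group. The part of these mesenchymal and endothelial miRNAs, or of their cells, in the rise of the cluster was not tested.

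Among miRNAs known to act on smooth muscle growth and phenotype, 9 were tested, of which 2 rose and 5 fell (median log2 fold change -1.23). The most abundant were lower in EVs: miR-26a-5p at 20729 ± 2235 CPM against 35403 ± 4374 CPM in Cells (-1.23, edgeR adjusted p = 0.000207), and miR-21a-5p at 16043 ± 3497 against 35802 ± 9831 CPM (-1.65, adjusted p = 0.000661). Scaled by library totals, 3 fell and 2 rose. The list shares miR-1a-3p and miR-133a-3p with that of striated muscle. In the striated muscle list 2 of 8 members were tested and both fell, miR-206-3p to 265 ± 180 CPM in EVs from 810 ± 286 CPM in Cells (-2.11, edgeR adjusted p = 0.00369) and miR-1a-3p to 23.5 ± 21.7 from 65.2 ± 17.0 CPM (-1.78, adjusted p = 0.0291). miR-1a-3p was no longer called with library size only (-1.28), nor on leaving out EVs replicate 1 (-1.62), Cells replicate 1 (-1.49) or Cells replicate 2 (-1.85). With 7, 2 and 33 reads in EVs replicates 1 to 3, it passed the filter on low counts only through the Cells libraries, where it was high. Its call is thus a description, here and among the 5 that fell in the smooth muscle list. Listed miR-133a-5p, miR-208a-3p and miR-208b-3p had 0 reads in all 6 libraries.

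The 2 increases larger than that of miR-145a-5p were those of miR-451a, a red cell miRNA (6.97, SE 0.50), and miR-122-5p, the main hepatocyte miRNA (6.84, SE 0.37). In the red cell list 3 of 3 tested members rose: miR-451a, miR-486a-5p by 2.20 and the related entry miR-486b-5p by 2.22. The miR-486 entries are not read as independent, and miR-451a passed the filter on low counts only through the EV libraries. In the liver list 2 of 3 rose and 0 fell, miR-192-5p by 2.07. The red cell list summed to 4406 to 8550 CPM per EV library and 292 to 333 CPM per Cells library, and the liver list to 6202 to 11226 and 563 to 701 CPM. Both lists were higher in EVs, as the cluster was, and their part in its rise was not tested. Among the EVs the red cell miRNA miR-451a was highest in replicate 1, at 5981 CPM, and the liver miRNA miR-122-5p in replicate 3, at 8316 CPM, the library in which miR-143-3p was highest. EVs replicate 3 was also the highest EV library for miRNAs that were lower in EVs, such as miR-206-3p (467 CPM) and miR-146a-5p (1504 CPM). Nothing is thus read from a shared highest library.

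Of the oligodendrocyte list 2 of 5 rose and 3 fell (median -0.80), with miR-219a-2-3p lower (-1.37) and miR-138-5p higher (0.73). Only 1 of these 5 rose with the replicate block, and likewise on leaving out EVs replicate 2, Cells replicate 2 or Cells replicate 3. With library size only 2 rose and 2 fell (median -0.35). Of the neuron list 6 of 7 rose and 0 fell (median 0.84), among them miR-128-3p (0.84) and miR-124-3p (0.97). Only 2 of that list rose when EVs replicate 1 was left out, 3 when EVs replicate 2 was, 3 when Cells replicate 3 was and 4 when Cells replicate 2 was. Of the microglia and myeloid list 0 of 5 rose and 4 fell (median -1.19), among them miR-146a-5p (-1.71) and miR-142a-3p (-1.19). With library size only 1 of that list fell, as on leaving out Cells replicate 3, and 2 fell on leaving out Cells replicate 1.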

How the data were processed

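The files deposited for each library hold raw counts, 1 value for every mature miRNA, not normalized. Per the submitters' processing notes, the tools included the trimmer cutadapt 1.7.1, the aligner Bowtie 0.12.8 and, for counting, featureCounts 1.4.6-p4, and the build was mm9. How reads with several matches were assigned, which annotation was used and whether the random adapter bases served to remove PCR duplicates is not given in the sources used here. EVs and Cells were compared with edgeR 4.0.16 (R 4.3.3) on these counts, with TMM scaling, filterByExpr at a minimum count of 10, group as the only term and adjustment over 336 miRNAs. The threshold for a call was an adjusted p of 0.05. CPM was computed from library totals. Arm ratios and ratios of neighbouring hairpins were tested with limma 3.58.1, using a pseudocount of 0.5. Log2 CPM had a prior count of 2. Each step was tested on simulated data. Alternatives were other scalings (library size, DESeq2 factors, upper quartile), filters and tools (DESeq2 1.42.0, limma-voom), thinning to 126910 reads, a replicate block and leaving out each library.

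Deviations from group means correlated at 0.115, 0.106 and 0.256 between same-numbered EV and Cells libraries and at -0.148 to 0.021 between others, all 3 same-numbered values being above 0.1, which meets the criterion for numbers that pair the samples. The main comparison nevertheless kept the planned single term of group, since the labels do not state that equal numbers share a culture. Its p-values thus leave out a pairing that this check favours. The block was an alternative, given where it changed the call of a member or the count of a list. The members and the 10 lists were chosen with earlier results of these data known. Besides the members, the 5 nearest profiles of each guide arm, the 3 pairs with the largest and the 3 with the smallest change, and the 2 most abundant tested members of each list are named. Libraries of 1 group differed by 7.73 to 37.5 times the degrees of freedom in chi-square, more than sampling noise.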

Additional observations from a re-analysis of the deposited data

How the results depend on the processing

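The rises of miR-143-3p, miR-145a-5p and both hairpin sums kept their direction and their call under every alternative run, including the replicate block, which changed no call of theirs. In the main fit miR-145a-5p and the mir-145a hairpin passed the filter only through the EV libraries, so their calls are descriptions. Leaving out each library in turn gave log2 fold changes of 1.41 to 2.49 for miR-143-3p and of 3.36 to 3.86 for miR-145a-5p, with 1.41 to 2.49 for the mir-143 hairpin and 3.41 to 3.86 for the mir-145a hairpin. With the block, the value of miR-143-3p was 1.90 (edgeR adjusted p = 0.0109) and that of miR-145a-5p 3.58 (edgeR adjusted p = 0.000340). The ratio of mir-145a to mir-143 stayed positive in all 9 alternatives of its exact test. In the limma fit over pairs, from which no call is drawn, it lay between 1.37 and 1.95 when a library was left out (adjusted p from 0.0111 to 0.0602) and at 1.68 with or without the replicate block (adjusted p = 0.0650 and 0.0166). Over the 49 pairs, 21 were called without the block and 8 with it. The planned minimum of 10 or 50 reads in every library left that pair out, so those settings gave no value for it. The arm ratio of mir-143 was -2.17 with no minimum beyond 1 count (adjusted p = 0.126) and lay between -2.56 and -1.46 when a library was left out; few passenger reads limit it. With library size only, 148 miRNAs were called higher and 60 lower in place of 96 and 97, and 7 listed miRNAs of other cell types were lower in place of 13. Depth limits both passenger arms and all values of mir-145a in Cells.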
